A study of Mus musculus with 4 samples.

Results

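Potassium channel genes, those with a name made of Kcn, further letters and a number, were chosen by name alone from the genes that the deposited accessibility tables assign as nearest to each region. The rule found 78 of 26614 named genes, with 267 of 80925 regions, on 19 chromosomes. Of these, 76 are protein coding, and the exceptions are Kcnq1ot1 and Kcnmb4os2, RNAs that share a channel gene's name without encoding a subunit. The genes were divided into 5 macrophage-expressed channels (Kcnj2, Kcna3, Kcnn4, Kcnk6 and Kcnk13), 31 genes known mainly from neurons and 42 others. After the filter on low values 76 genes and 246 regions were tested. Kcnn2 and Kcnq5 were too low to test.

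The libraries came from RAW264.7 cells, a transformed mouse macrophage-like line, profiled with ATAC-seq, which tags open chromatin with adapters carried by a transposase. A pair of libraries is titled CuNZ@Gel, which the series title describes as a nanozyme hydrogel, and a pair is titled Gel; all 4 came from 12-well plates with 1000000 cells per well, 48 h after treatment. The comparison asks how accessibility differed between the cells with these hydrogels. The treatment text is identical for all samples and names CuNZ@Gel alone, and what the Gel cells were given is known from the titles only. Whether replicates came from different cultures is not in the labels. The p-values therefore stand for library-to-library spread, possibly of technical origin.

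Potassium channels let potassium leave the cell down its gradient, which holds the membrane potential negative. Pore subunits fall into voltage-gated channels, channels opened by intracellular calcium or sodium, inward rectifiers and tandem-pore leak channels, and auxiliary subunits tune them. In macrophages potassium currents set the driving force for calcium entry, and potassium efflux triggers the NLRP3 inflammasome, whereas most other family members are studied in nerve, muscle or epithelium. ATAC-seq reads the openness of DNA near a gene, not its RNA or the channel current.

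A gene's value was the sum of RPM over its regions, where RPM is reads per 1000000 reads in regions after the authors' scaling. Such sums depend on how many regions a gene has and how wide they are, so they are compared between groups and not between genes. Changes are CuNZ@Gel minus Gel on the log2(RPM + 1) scale with their SE, and a change was called at a limma adjusted p under 0.05 over all 25900 genes or 77014 regions tested. With bulk cells, open chromatin in fewer cells and less open chromatin in every cell cannot be told apart.

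The groups differed in depth and in reads over background, and every comparison below coincides with that difference. CuNZ@Gel libraries held 7440951 and 10236665 reads in regions, against 18843465 and 17914812 in Gel libraries. Reads in regions per unit of genome background (in units of 1000000 reads) were 6.37 and 8.52 in CuNZ@Gel, against 18.8 and 18.6 in Gel. Across all genes the change fell with level, so results are also given after cyclic loess, which removes that trend, and after scaling to genome background, which moved the median of all genes to -1.06, against -0.10 with the deposited scaling. Macrophage marker genes were open in every library, with sums of 876 and 890 RPM in CuNZ@Gel and 1085 and 1082 RPM in Gel over 8 genes; 1 of the 8 was higher and 5 were lower in CuNZ@Gel.

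Of the 76 channel genes tested, 26 were more open and 12 less open in CuNZ@Gel libraries than in Gel libraries, and 38 were not called. That is 34.2% higher and 15.8% lower, where all genes tested gave 20.5% higher and 36.1% lower. The median change was 0.17 over the channel genes and -0.10 over all genes. With the trend with level removed, 18 were higher and 7 lower, against 20.2% and 15.9% of all genes, and the medians were 0.06 and -0.02. On the background scale 5 were higher and 48 lower, against 2.77% and 75.5% of all genes. Calls kept under both the deposited scaling and the trend-removed one numbered 15 higher and 6 lower. Of the genes called higher with the deposited scaling, Kcna1, Kcnc2, Kcnh5, Kcnmb2, Kcnmb4os2 and Kcns2 passed the filter through CuNZ@Gel libraries alone. All of them lie in the lowest decile of level, and their calls do not test a difference.

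The channel genes lie low in the range of levels, where rises were common over all genes too. In the lowest 3 deciles of level, 9 of 31 channel genes were higher and 1 was lower, with a median of 0.33, while 28.6% of all genes there were higher, with a median of 0.25. In the highest 3 deciles 3 of 10 were higher and 4 lower, with a median of -0.10, while 74.1% of all genes there were lower, with a median of -0.42. The middle deciles lay between these, with medians of 0.17 over 22 channel genes in deciles 4 to 5 and -0.02 over 13 in deciles 6 to 7, against 0.05 and -0.23 over all genes.

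**Figure D1:**
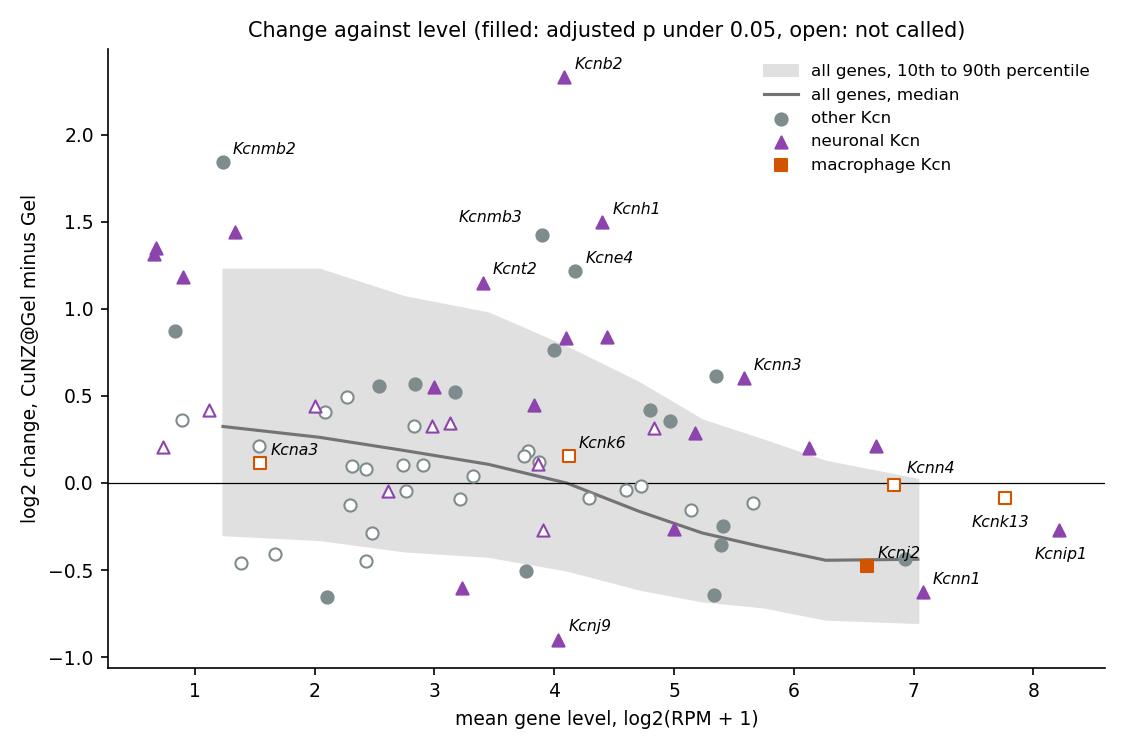
Log2 change (CuNZ@Gel minus Gel) against the mean log2 level of each of the 76 tested channel genes; symbols give the gene's list, filled symbols are called, and the grey band and line are the 10th to 90th percentile and median of all genes by decile. Of the 76 genes 15, Kcnb2, Kcnh1 and Kcnn3 among them, lie above the 90th percentile of their own decile, and 7, Kcnj9 and Kcnh2 among them, lie below its 10th percentile.

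Among the 5 macrophage channels 1, Kcnj2, was called lower and the other 4 were not called, with a median change of -0.01. After removal of the trend 2, Kcnn4 and Kcnk13, were higher. Kcnj2 encodes the strong inward rectifier that sets the resting potential of many macrophages. It had 77.3 and 86.9 RPM in CuNZ@Gel libraries, against 116 and 113 RPM in Gel libraries, so both CuNZ@Gel values lay below both Gel values. The change was -0.48 ± 0.07 (adjusted p = 4.83e-06). It became 0.15 with the trend removed (adjusted p = 0.0784), on the other side of zero and not called.

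Kcnn4 encodes the intermediate-conductance calcium-activated channel, which supports calcium entry in activated immune cells. It had 115 and 111 RPM in CuNZ@Gel and 115 and 113 RPM in Gel, and the groups overlapped. Its change was -0.01 ± 0.06 (limma adjusted p = 0.870), and 0.20 with the trend removed (adjusted p = 0.00824). Kcnk13 encodes a tandem-pore leak channel known for its current in microglia. It had 208 and 212 RPM in CuNZ@Gel and 218 and 228 RPM in Gel, close together but not overlapping. Its change was -0.09 ± 0.05 (limma adjusted p = 0.101), and 0.20 with the trend removed (adjusted p = 4.51e-04). On the background scale both were lower, by -1.06 for Kcnn4 and -1.14 for Kcnk13, near the median of all genes on that scale.

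Kcna3 encodes the Shaker-type voltage-gated channel of lymphocytes and macrophages. Its only region had 2.30 and 1.78 RPM in CuNZ@Gel and 1.75 and 1.86 RPM in Gel, which overlapped, and its change of 0.11 ± 0.28 was not called (limma adjusted p = 0.756). The change was -0.15 with the trend removed and -0.58 on the background scale, and neither was called. Kcnk6 encodes a tandem-pore channel studied for the potassium efflux that precedes NLRP3 activation. It had 18.2 and 16.5 RPM in CuNZ@Gel and 14.1 and 17.0 RPM in Gel. These overlapped too, with a change of 0.15 ± 0.14 (limma adjusted p = 0.362). Neither gene was called under the deposited scaling or after removal of the trend (0.12 for Kcnk6). Scaling to genome background called Kcnk6 lower, at -0.84 (limma adjusted p = 0.0011), where the median of all genes was -1.06. Scaling to totals of reads in regions called it higher, at 0.42 (limma adjusted p = 0.0146). The direction for Kcnk6 thus depends on the scaling.

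**Figure D2:**
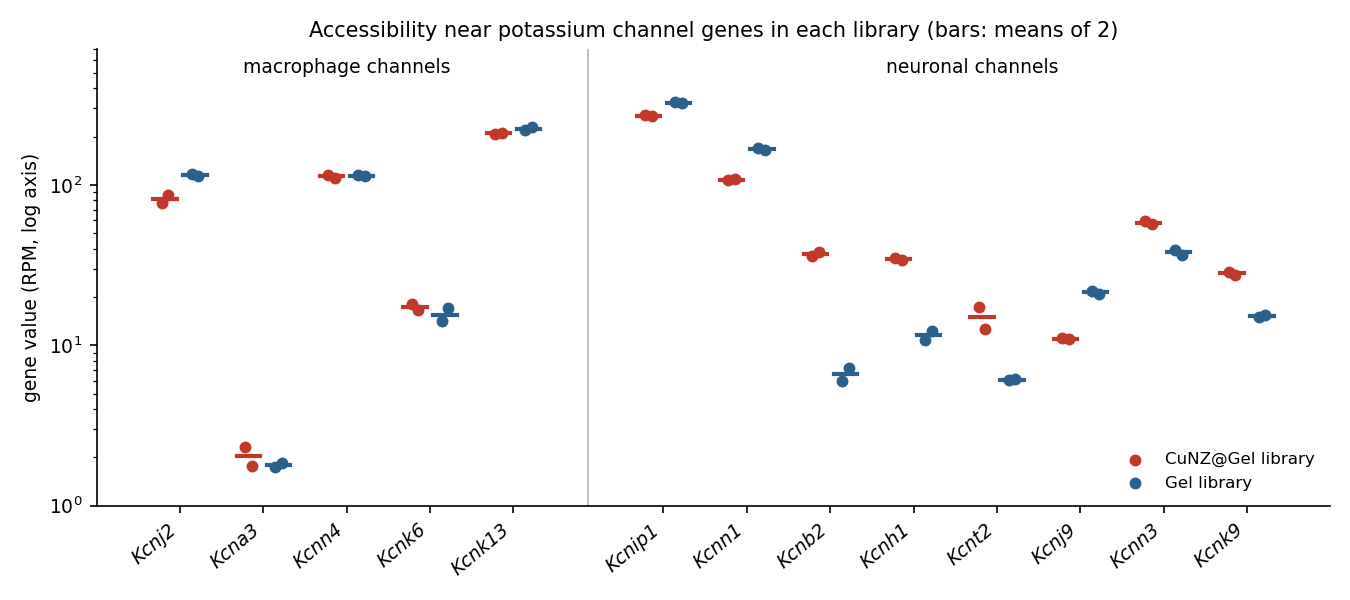
RPM (log axis) in each library for the 5 macrophage channels and 8 neuronal ones; red points are CuNZ@Gel libraries, blue points Gel libraries, and bars the means of each pair. The groups overlap for Kcna3, Kcnn4 and Kcnk6, and all CuNZ@Gel points lie above the Gel points for Kcnb2 and Kcnh1.

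The gene sums of Kcnk13, Kcnn4 and Kcnj2 covered regions called in opposite directions, while Kcna3 and Kcnk6 had no called region. Coordinates here are GRCm39, and a region is tied to a gene only as the authors' nearest one. Kcnk13 had 12 regions on chromosome 12, of which 5 were higher and 4 lower. The region at chr12:99906149-99906315 had 10.4 and 8.18 RPM in CuNZ@Gel, against 2.45 and 2.66 RPM in Gel, and rose by 1.53 ± 0.22 (limma adjusted p = 5.65e-08). It held a called peak in both CuNZ@Gel libraries and in neither Gel library. The region with the most reads, chr12:99930639-99932896, had 51.8 and 48.7 RPM in CuNZ@Gel, against 64.3 and 66.6 RPM in Gel. Its change was -0.38 ± 0.08 with the deposited scaling (limma adjusted p = 2.33e-04) and 0.18 with the trend removed (adjusted p = 0.0895). The falls at chr12:99922066-99923051, of -0.72 ± 0.12, and chr12:99959570-99960177, of -0.71 ± 0.17, were also called lower with the trend removed, at -0.47 and -0.69. Thus the near-zero sum over Kcnk13 was made of regions that were called in both directions, under either scaling.

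Kcnn4 had 7 regions on chromosome 7, with 3 higher and 1 lower. The region at chr7:24069241-24069705 had 28.1 and 27.8 RPM in CuNZ@Gel, against 15.3 and 17.0 RPM in Gel, a rise of 0.76 ± 0.12 (limma adjusted p = 1.38e-06). Its neighbour with the most reads, chr7:24072718-24073926, had 28.2 and 26.7 RPM in CuNZ@Gel, against 47.2 and 43.5 RPM in Gel, a change of -0.70 ± 0.10 (limma adjusted p = 1.25e-07). Neither pair of groups overlapped, and both calls were kept with the trend removed, at 1.00 and -0.30. Kcnj2 had 3 regions. The fall of the gene came from chr11:110955629-110957524, with 67.4 and 78.3 RPM in CuNZ@Gel, against 109 and 106 RPM in Gel (-0.56 ± 0.07, limma adjusted p = 1.25e-08). That region was not called with the trend removed (0.14, adjusted p = 0.134). A small region at chr11:110945834-110946253 rose by 1.01 ± 0.26 with 5.33 and 3.73 RPM in CuNZ@Gel, against 2.22 and 1.30 RPM in Gel (limma adjusted p = 0.00133).

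**Figure D3:**
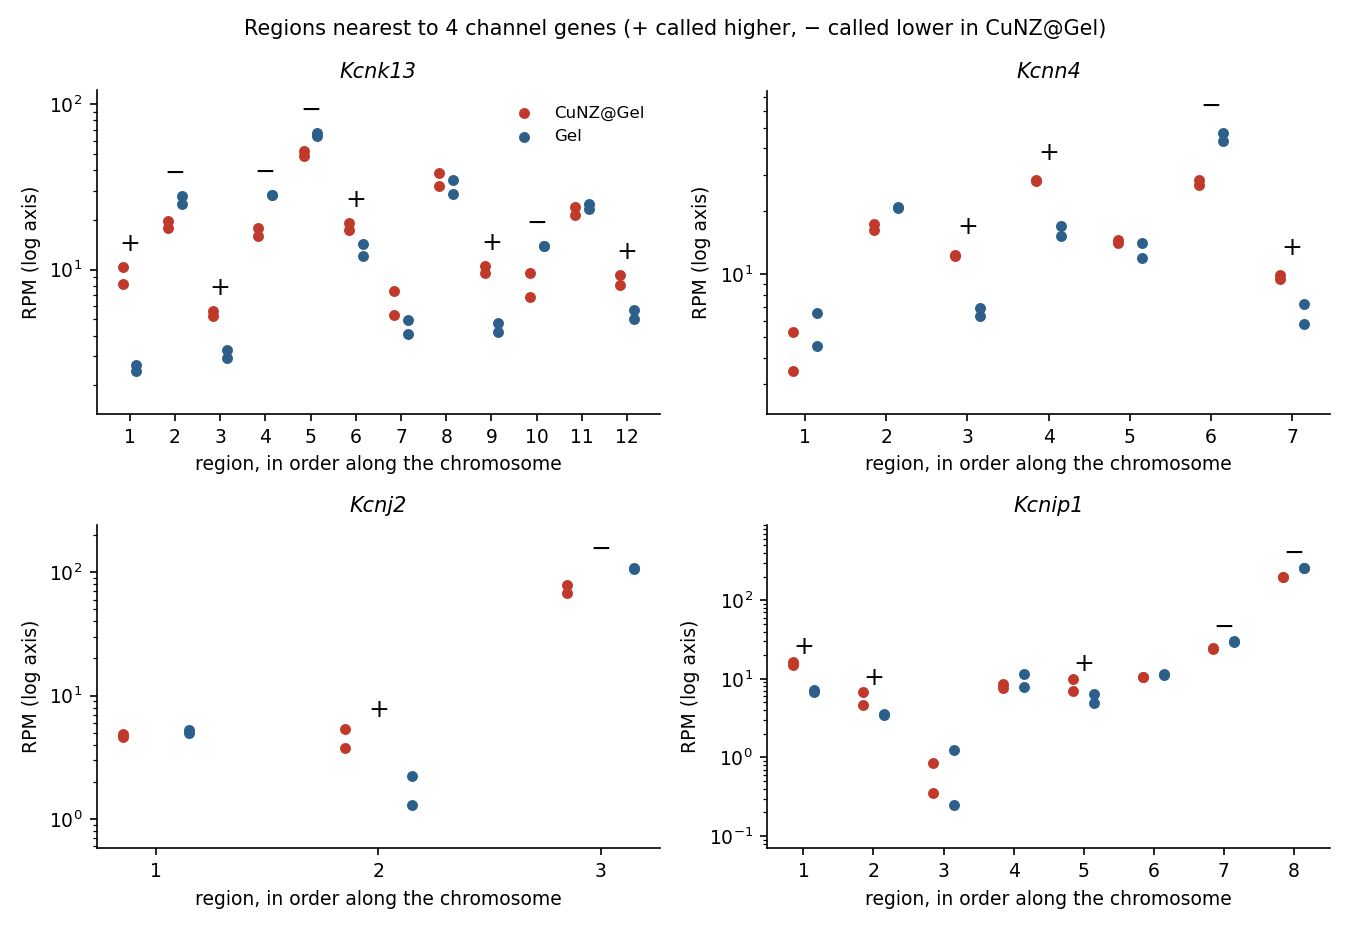
RPM (log axis) of every region nearest to Kcnk13, Kcnn4, Kcnj2 and Kcnip1, in order along the chromosome, in each CuNZ@Gel library (red) and each Gel library (blue). Plus signs mark regions called higher and minus signs regions called lower in CuNZ@Gel; each of the 4 genes has both.

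Of 55 channel genes with at least 2 tested regions, 11 (20%) had regions called in both directions, against 24.5% of all such genes. Over all member regions 66 of 246 were higher and 31 lower, against 21.2% and 21.9% of all regions, and with the trend removed 51 were higher and 25 lower, against 18.8% and 13.8%. Without Gel replicate 1 the lower regions numbered 20. Some of the higher regions, near Kcnh1 and Kcnj6 among others, passed the filter through CuNZ@Gel libraries alone. In the 42 genes with at least 3 regions, the region with the most reads was higher in 12 and lower in 13, with a median of 0.00. Of the other 158 tested regions of these genes 46 were higher and 15 lower, with a median of 0.19. After removal of the trend these became 11 higher and 5 lower for the first kind, with a median of 0.07. For the others they became 36 higher and 14 lower, with a median of 0.04. The same split over all genes is not given here, and across all genes too the change fell with level.

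Promoter sequences are shown for 4 macrophage channels to set their base composition beside these values; Kcnk6 has no entry in the table used. They are the first RefSeq window of each gene in GRCm38.p6, 250 bases before to 50 after the start, a different build from that of the regions, so no region was placed on them. CG dinucleotides, the sites of DNA methylation that are dense in open promoters of widely used genes, are in capitals. The windows lie at chr11:111065914-111066213 on the plus strand for Kcnj2, chr3:107035912-107036211 on the plus strand for Kcna3, chr7:24370013-24370312 on the plus strand for Kcnn4 and chr12:99964249-99964548 on the plus strand for Kcnk13.
Kcnj2: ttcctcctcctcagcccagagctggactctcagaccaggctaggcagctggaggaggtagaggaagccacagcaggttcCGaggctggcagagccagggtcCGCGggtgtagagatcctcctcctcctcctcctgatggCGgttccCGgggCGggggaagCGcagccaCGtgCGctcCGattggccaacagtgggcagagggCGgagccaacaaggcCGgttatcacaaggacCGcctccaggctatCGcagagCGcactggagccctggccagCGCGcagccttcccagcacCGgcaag
Kcna3: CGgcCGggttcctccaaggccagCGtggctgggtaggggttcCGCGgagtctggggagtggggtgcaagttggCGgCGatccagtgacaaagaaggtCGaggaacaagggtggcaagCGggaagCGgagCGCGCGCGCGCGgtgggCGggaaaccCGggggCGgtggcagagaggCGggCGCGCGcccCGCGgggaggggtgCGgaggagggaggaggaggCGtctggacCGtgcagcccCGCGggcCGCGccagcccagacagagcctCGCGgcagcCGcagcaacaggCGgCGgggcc
Kcnn4: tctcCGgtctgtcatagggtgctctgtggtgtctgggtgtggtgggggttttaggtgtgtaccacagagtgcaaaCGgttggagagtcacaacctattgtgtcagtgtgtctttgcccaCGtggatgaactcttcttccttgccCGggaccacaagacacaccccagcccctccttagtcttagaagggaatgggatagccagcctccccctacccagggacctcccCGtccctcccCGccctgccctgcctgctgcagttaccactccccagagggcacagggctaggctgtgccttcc
Kcnk13: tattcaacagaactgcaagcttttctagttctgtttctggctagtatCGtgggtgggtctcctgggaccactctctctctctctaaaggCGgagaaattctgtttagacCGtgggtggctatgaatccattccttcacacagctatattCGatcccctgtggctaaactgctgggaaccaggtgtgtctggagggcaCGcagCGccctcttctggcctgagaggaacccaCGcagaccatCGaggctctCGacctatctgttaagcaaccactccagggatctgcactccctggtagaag

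Kcna3 had the most CG dinucleotides of the 4 windows, 37, and Kcnj2 had 18, Kcnk13 9 and Kcnn4 6. The letters GAGGAA, the core of the site bound by the macrophage factor PU.1, were found on either strand in 3 of the 4 windows, at 2 positions for Kcnj2, 2 for Kcna3 and 1 for Kcnk13. They occurred in 28.3% of 27025 first windows of all genes and in 15 of the 58 channel genes with a window. GGGCGG, the GC box bound by Sp factors, was found in 29 of these 58, against 35.9% of all. TGANTCA, the AP-1 site, was found in 3 of the 58, against 7.93% of all, CCAAT in 18, against 37.9%, and TATAAA in 3, against 14.2%. These motifs were searched on both strands, do not contain each other, and a match is a run of letters, not a bound site.

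The genes known mainly from neurons held most of the rises. Of 39 listed, 31 had regions and 29 were tested. Of these 15 were higher (51.7%) and 5 lower (17.2%), against 20.5% and 36.1% of all genes, with a median change of 0.35. Kcna1, Kcnc2, Kcnh5 and Kcns2, among the higher ones, passed the filter through CuNZ@Gel libraries alone. The median level of the 29 lies in deciles 4 to 5, where 29.2% of all genes were higher and 16.8% lower. Without Gel replicate 2 the lower calls numbered 3. With the trend removed 10 were higher and 4 lower, against 20.2% and 15.9% of all genes, with a median of 0.31. On the background scale 4 were higher and 15 lower, against 2.77% and 75.5% of all genes. Under both the deposited and the trend-removed scaling 9 were higher and 3 (Kcnc1, Kcnh4 and Kcnj9) lower. The sums over 8 neuron marker genes were 52.5 and 50.7 RPM in CuNZ@Gel and 48.5 and 44.6 RPM in Gel, with Nefm at 0 in 3 libraries; of 7 tested, 2 were higher and 1 lower. Their part in the result was not tested.

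Among voltage-gated pore subunits 13 of 30 were higher (43.3%) and 4 lower (13.3%), with a median of 0.30. All genes tested gave 20.5% higher and 36.1% lower. With the trend removed 6 of the 30 were higher and 4 lower, near the 20.2% and 15.9% of all genes. Kcnb2, a delayed rectifier subunit, had the largest rise among the channel genes tested on the log2(RPM + 1) scale, which understates the change of genes with few reads such as Kcnmb2, Kcns2 and Kcnc2. It had 36.0 and 38.0 RPM in CuNZ@Gel, against 5.95 and 7.24 RPM in Gel, far from overlapping. It rose by 2.33 ± 0.14 (limma adjusted p = 9.85e-11), and was also higher with the trend removed (2.17) and on the background scale (1.35, adjusted p = 1.86e-07). Most of its reads lay in chr1:15726872-15727763, with 28.2 and 31.6 RPM in CuNZ@Gel, against 5.08 and 5.76 RPM in Gel, a rise of 2.27 ± 0.15. A called peak was present there in all 4 libraries.

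Kcnh1, a pore subunit of the ether-a-go-go family, had 35.0 and 33.9 RPM in CuNZ@Gel, against 10.9 and 12.3 RPM in Gel. The groups were well apart, and the change was 1.50 ± 0.12 (limma adjusted p = 5.62e-09), with 1.25 after removal of the trend. Of its 7 regions 4 were called higher. Among them chr1:191870474-191870705 and chr1:191950244-191950421 passed the filter through CuNZ@Gel libraries alone. The largest of the 4 rises was at chr1:191949281-191949575, with 11.5 and 9.60 RPM in CuNZ@Gel, against 1.28 and 1.67 RPM in Gel (2.22 ± 0.23). Peaks were called there in both CuNZ@Gel libraries and neither Gel library. Kcna1, a Shaker-type subunit of axons, had a single region with 3.03 and 3.29 RPM in CuNZ@Gel, against 0.350 and 0.742 RPM in Gel. The change of 1.44 ± 0.30 came from few reads, 25 and 37 in CuNZ@Gel and 6 and 12 in Gel. With both Gel libraries under the filter limit, Kcna1 passed the filter through CuNZ@Gel libraries alone. That change is therefore a description and does not test a difference.

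Kcns2, a silent modifier subunit, and Kcnc2, a subunit of fast-spiking neurons, were at 0 reads in both Gel libraries. Kcns2 had 9 and 22 reads in CuNZ@Gel and Kcnc2 had 23 and 8. Each gene has 1 region, with a peak called only in CuNZ@Gel replicate 1 for Kcnc2 and only in replicate 2 for Kcns2. With 0 reads in Gel, both passed the filter through CuNZ@Gel libraries alone. So did Kcna1, Kcnh5, Kcnmb2 and Kcnmb4os2, which had few reads in Gel, under the filter limit in both libraries. The folds that follow describe Kcns2 and Kcnc2, selected through the group where they are high, and do not test a difference. Against a limit of 3 reads over the Gel group, each was at least 17.7-fold higher over both CuNZ@Gel libraries. From single CuNZ@Gel libraries, without replicate 1 the bound was 7.89-fold for Kcnc2 and 21.7-fold for Kcns2, and without replicate 2 it was 31.0-fold for Kcnc2 and 12.1-fold for Kcns2. Neither gene was called with the trend removed (limma adjusted p = 0.0561 for Kcns2 and 0.0560 for Kcnc2).

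The voltage-gated falls were smaller in number. Kcnd1, a transient A-type subunit, had 2.55 and 2.31 RPM in CuNZ@Gel, against 4.20 and 4.58 RPM in Gel (-0.65 ± 0.24, limma adjusted p = 0.0239). Kcnh4, of the ether-a-go-go-like group, had 6.19 and 7.02 RPM in CuNZ@Gel, against 10.3 and 10.8 RPM in Gel (-0.60 ± 0.17, limma adjusted p = 0.00573). Kcnh2, which carries the repolarising current of heart muscle known as hERG, had 11.0 and 9.86 RPM in CuNZ@Gel, against 16.1 and 14.4 RPM in Gel (-0.50 ± 0.15, limma adjusted p = 0.00743). The groups did not overlap for any of the 3, and all 3 were also lower with the trend removed. Each lost its call without at least 1 library: Kcnd1 without CuNZ@Gel replicate 2 (-0.60), Gel replicate 1 (-0.70) or Gel replicate 2 (-0.60), Kcnh4 without Gel replicate 2 (-0.58) and Kcnh2 without Gel replicate 1 (-0.43).

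Of the 6 tested pore subunits opened by calcium or sodium, 3 were higher (50%) and 1 lower (16.7%), against 20.5% and 36.1% of all genes. With the trend removed 3 were higher and 0 lower, against 20.2% and 15.9% of all genes. Kcnt2, a sodium-activated subunit, had 17.2 and 12.6 RPM in CuNZ@Gel, against 6.07 and 6.13 RPM in Gel, and rose by 1.15 ± 0.18 (limma adjusted p = 1.46e-05). Kcnt1, its closest relative, had 14.4 and 16.9 RPM in CuNZ@Gel, against 10.9 and 11.6 RPM in Gel (0.45 ± 0.15, limma adjusted p = 0.0149). The groups did not overlap for either gene. Kcnt1 was not called without CuNZ@Gel replicate 2 (0.34) or Gel replicate 1 (0.40), nor with the trend removed (0.31).

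Kcnn1 and Kcnn3, small-conductance calcium-activated subunits, moved in opposite directions. Kcnn3 had 59.3 and 56.7 RPM in CuNZ@Gel, against 39.5 and 36.3 RPM in Gel, and rose by 0.60 ± 0.09 (limma adjusted p = 6.42e-06). Kcnn1 had 107 and 108 RPM in CuNZ@Gel, against 169 and 165 RPM in Gel, a change of -0.63 ± 0.05 (limma adjusted p = 8.68e-09). Neither pair of groups overlapped. Kcnn3 stayed higher with the trend removed (0.51), while Kcnn1 was not called (-0.12, adjusted p = 0.0777). Kcnn3 had 10 regions, and much of its rise lay in chr3:89437199-89438043, with 21.6 and 20.2 RPM in CuNZ@Gel, against 4.84 and 5.57 RPM in Gel (1.82 ± 0.16). Against that, chr3:89427102-89427502 fell, with 3.28 and 2.76 RPM in CuNZ@Gel and 6.65 and 5.57 RPM in Gel (-0.82 ± 0.23, limma adjusted p = 0.00229).

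Of the 12 inward rectifiers 3 were higher (25%) and 2 lower (16.7%), with a median of 0.04, against 20.5% and 36.1% of all genes. With the trend removed 1 was higher and 2 lower, against 20.2% and 15.9% of all genes. Kcnj9 and Kcnj6 encode subunits of the G protein-gated channels of neurons and gave opposite calls. Kcnj9 had 11.0 and 10.9 RPM in CuNZ@Gel, against 21.8 and 20.9 RPM in Gel, well apart, and its change of -0.90 ± 0.14 was the largest fall among channel genes (limma adjusted p = 1.12e-05). It was -1.03 with the trend removed. All 3 of its regions had lower values in both CuNZ@Gel libraries than in both Gel libraries, and 2 were called. The region chr1:172152130-172152549 had peaks in Gel libraries alone and 4.25 and 4.36 RPM in CuNZ@Gel, against 6.36 and 6.19 RPM in Gel, and was not called (-0.46 ± 0.21, limma adjusted p = 0.0744).

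Kcnj6 had 79.2 and 69.1 RPM in CuNZ@Gel, against 65.4 and 62.9 RPM in Gel, a change of 0.20 ± 0.08 (limma adjusted p = 0.0324) that was not called without CuNZ@Gel replicate 1 (0.11), Gel replicate 1 (0.23) or Gel replicate 2 (0.18). Its 12 regions moved in both directions, with 4 higher and 1 lower. Of the higher ones, chr16:94594146-94594321 and chr16:94683837-94684310 passed the filter through CuNZ@Gel libraries alone. The region chr16:94757029-94757826, with peaks in CuNZ@Gel libraries alone, had 13.1 and 7.20 RPM there, against 1.17 and 1.67 RPM in Gel (2.16 ± 0.24, limma adjusted p = 2.23e-10). The region with the most reads, chr16:94769697-94770397, had 31.4 and 30.3 RPM in CuNZ@Gel, against 44.0 and 42.1 RPM in Gel (-0.47 ± 0.10, limma adjusted p = 1.28e-04).

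Kcnj11, the pore of the ATP-sensitive channel, had 6.43 and 9.15 RPM in CuNZ@Gel, against 5.43 and 4.33 RPM in Gel (0.57 ± 0.21, limma adjusted p = 0.0263). It was not called without CuNZ@Gel replicate 2 (0.34) or Gel replicate 2 (0.43). Kcnj12, a relative of Kcnj2 in heart and muscle, had 32.1 and 30.3 RPM in CuNZ@Gel, against 22.3 and 24.0 RPM in Gel (0.42 ± 0.11, limma adjusted p = 0.00270). Neither was called with the trend removed, at 0.37 and 0.21.

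Of 11 tandem-pore channels 2 were higher (18.2%) and 1 lower (9.09%), against 20.5% and 36.1% of all genes. With the trend removed 3 were higher and 0 lower, against 20.2% and 15.9% of all genes. Kcnk9, an acid-sensitive leak channel, had 28.7 and 27.3 RPM in CuNZ@Gel, against 14.9 and 15.5 RPM in Gel, and rose by 0.84 ± 0.12 (limma adjusted p = 6.08e-06). Kcnk12, the closest relative of Kcnk13, had 19.0 and 20.7 RPM in CuNZ@Gel, against 10.9 and 11.7 RPM in Gel, and rose by 0.76 ± 0.14 (limma adjusted p = 9.39e-05). Both were well above their Gel values and were called with the trend removed as well. Kcnk7 had 38.9 and 33.2 RPM in CuNZ@Gel, against 42.1 and 51.2 RPM in Gel (-0.36 ± 0.11, limma adjusted p = 0.00673). It was not called with the trend removed (-0.12), without CuNZ@Gel replicate 2 (-0.25) or without Gel replicate 2 (-0.22).

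Of the 15 auxiliary subunits 4 were higher and 4 lower (26.7% each), against 20.5% and 36.1% of all genes. With the trend removed the split was not even, with 5 higher and 1 lower, against 20.2% and 15.9% of all genes. Among the rises, Kcnmb2, a beta subunit of the large-conductance calcium-activated channel, had 4.97 and 2.31 RPM in CuNZ@Gel, against 0.234 and 0.247 RPM in Gel (1.84 ± 0.33). With 4 and 4 reads in Gel, Kcnmb2 passed the filter through CuNZ@Gel libraries alone. Its change is a description and does not test a difference. Kcnmb3, another beta subunit of that channel, had 22.1 and 24.9 RPM in CuNZ@Gel, against 7.47 and 8.79 RPM in Gel (1.43 ± 0.15, limma adjusted p = 1.01e-07). Kcne4, a single-span subunit that inhibits several voltage-gated channels, the Kcna3 channel among them, had 28.4 and 24.8 RPM in CuNZ@Gel, against 10.9 and 10.8 RPM in Gel (1.22 ± 0.13, limma adjusted p = 2.06e-07). In all 3 genes each CuNZ@Gel library was higher than each Gel library, and 4 of the 6 Kcne4 regions rose. Kcnmb3 and Kcne4 stayed higher with the trend removed, and so did Kcnmb2, under the same filter limit.

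Among the falls, Kcnip1, a calcium-binding partner of A-type channels, had 271 and 269 RPM in CuNZ@Gel, against 328 and 324 RPM in Gel (-0.27 ± 0.04, limma adjusted p = 5.1e-06). With the trend removed the call turned round to 0.52 (adjusted p = 5.76e-12), so its direction depends on the scaling. Most of its reads lay in chr11:33959531-33961306, with 195 and 198 RPM in CuNZ@Gel, against 261 and 255 RPM in Gel. The change there was -0.39 ± 0.05 with the deposited scaling and 0.61 with the trend removed. Kcnab2 and Kcnab3 encode beta subunits related to aldo-keto reductases. Kcnab3 had 31.3 and 31.2 RPM in CuNZ@Gel, against 47.3 and 51.3 RPM in Gel (-0.64 ± 0.09, limma adjusted p = 6.63e-06), and Kcnab2 had 100 and 107 RPM in CuNZ@Gel, against 146 and 135 RPM in Gel (-0.44 ± 0.06, limma adjusted p = 4.88e-06). Kcnab3 stayed lower with the trend removed (-0.34) and Kcnab2 did not (0.06, adjusted p = 0.478).

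Of the RNAs that are not channel subunits, Kcnq1ot1, the imprinted antisense RNA of the Kcnq1 locus, had 53.6 and 42.2 RPM in CuNZ@Gel and 51.0 and 52.1 RPM in Gel, overlapping and not called (-0.11 ± 0.10, limma adjusted p = 0.344). Kcnmb4os2 had 0.970 and 1.96 RPM in CuNZ@Gel, against 0.466 and 0.186 RPM in Gel (0.87 ± 0.35). With 8 and 3 reads in Gel, Kcnmb4os2 passed the filter through CuNZ@Gel libraries alone, so its call does not test a difference. It lost its call without CuNZ@Gel replicate 2 (0.58), Gel replicate 1 (1.02) or Gel replicate 2 (0.72).

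**Figure D4:**
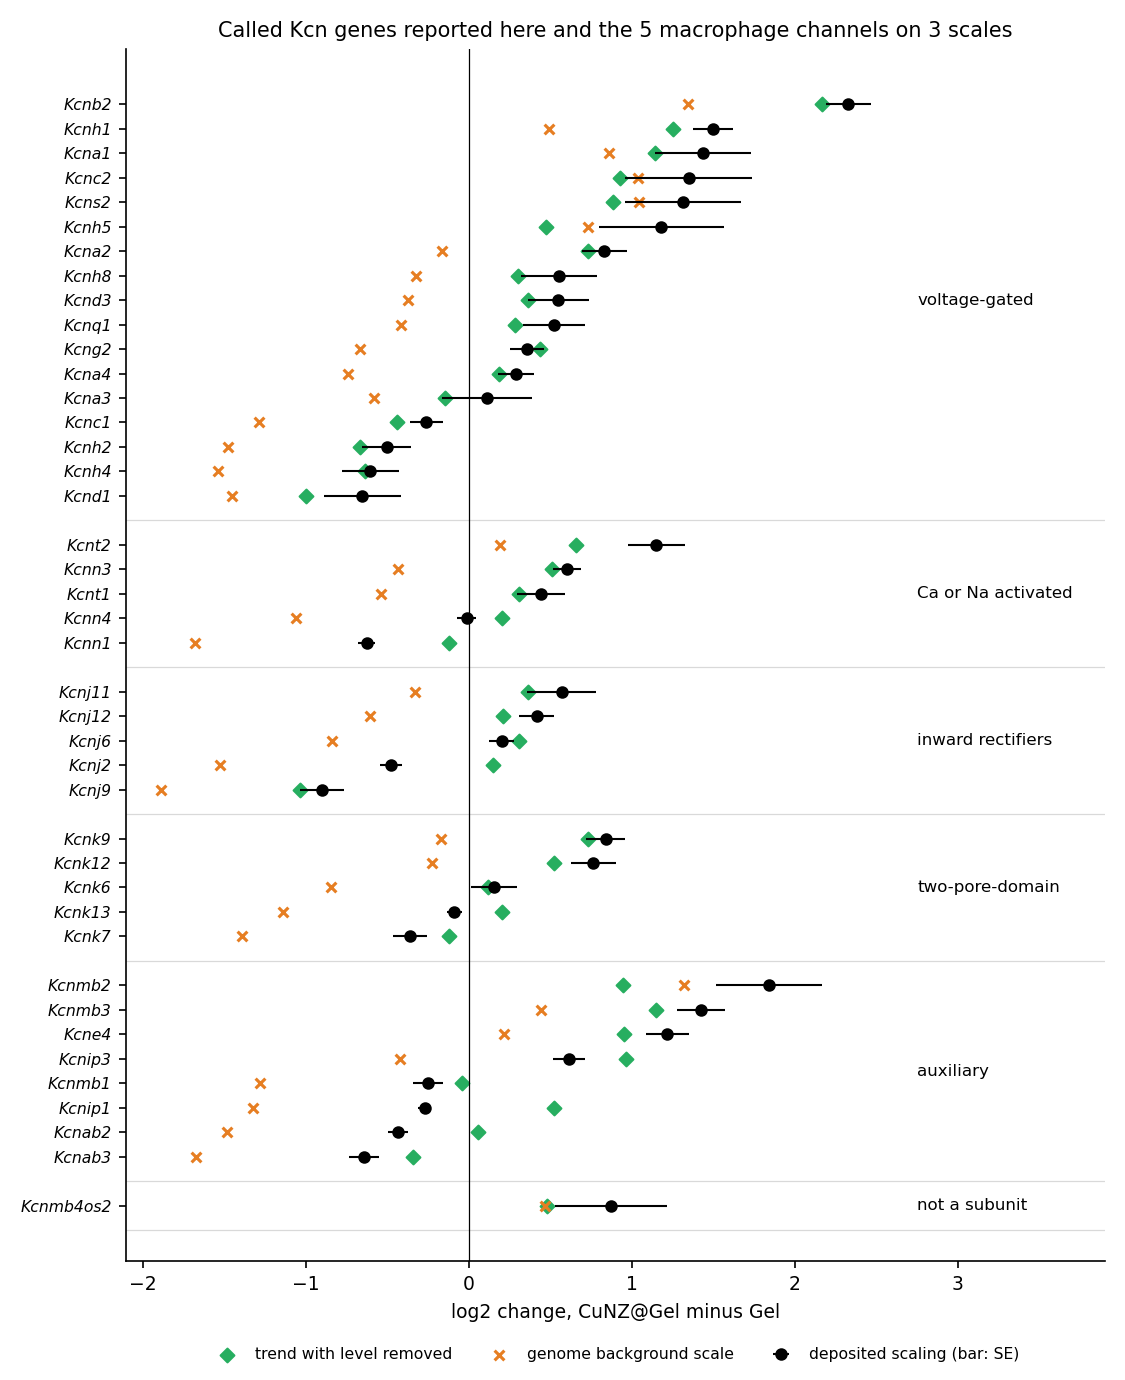
Log2 change (CuNZ@Gel minus Gel) of the called channel genes reported here and the 5 macrophage channels, grouped by kind of subunit, with the deposited scaling (black, bars are SE), the trend with level removed (green) and the genome background scale (orange). Kcnb2 is positive on all 3 scales, at 2.33, 2.17 and 1.35, Kcnj9 negative on all 3, at -0.90, -1.03 and -1.89, and Kcnip1 changes side.

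To set rising and falling neuronal genes beside the macrophage channels, the same GRCm38.p6 windows are shown for Kcnh1, at chr1:192190527-192190826 on the plus strand, and Kcnj9, at chr1:172329273-172329572 on the minus strand, with CG dinucleotides in capitals; Kcnb2 has no entry in the table used.
Kcnh1: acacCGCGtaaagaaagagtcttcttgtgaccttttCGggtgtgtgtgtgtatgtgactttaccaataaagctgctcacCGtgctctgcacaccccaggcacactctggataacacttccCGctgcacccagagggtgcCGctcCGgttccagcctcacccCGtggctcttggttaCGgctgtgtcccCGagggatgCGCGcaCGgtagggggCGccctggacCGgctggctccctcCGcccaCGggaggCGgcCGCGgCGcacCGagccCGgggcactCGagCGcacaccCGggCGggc
Kcnj9: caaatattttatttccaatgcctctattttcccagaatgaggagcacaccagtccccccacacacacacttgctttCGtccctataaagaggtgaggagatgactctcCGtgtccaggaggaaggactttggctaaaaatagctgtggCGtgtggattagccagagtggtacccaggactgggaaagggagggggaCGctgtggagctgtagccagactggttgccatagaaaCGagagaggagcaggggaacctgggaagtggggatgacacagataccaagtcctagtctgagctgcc

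Kcnh1, which rose, had 27 CG dinucleotides and Kcnj9, which fell, had 5. The median was 17 in the 17 channel genes called higher, 15.5 in the 10 called lower and 8 in the 30 not called. Over all genes with a window the order was the other way, with medians of 5 in the 3287 called higher and 20 in the 7026 called lower. Across 57 tested channel genes with a window, Spearman's rho between CG count and log2 change was 0.00, given as a description across genes that share the same 4 libraries.

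Peaks called separately in each library gave a different balance from the values. Of 267 member regions 66 (24.7%) held a peak in all 4 libraries, against 39.6% of all regions. A peak in both CuNZ@Gel libraries and neither Gel library was found in 5 regions (1.87%), against 2.28% of all, and a peak in both Gel libraries and neither CuNZ@Gel library in 43 (16.1%), against 11.0% of all. The 5 CuNZ@Gel-restricted regions, near Kcne4, Kcnh1, Kcnj16, Kcnk13 and Kcnj6, were all called higher, with a median change of 1.53, as a description, since peaks and values come from the same reads. The one near Kcnj16, an inward rectifier of kidney and glia, was chr11:110672626-110673053, with 5.22 and 6.75 RPM in CuNZ@Gel, against 1.57 and 1.24 RPM in Gel. Of the 43 Gel-restricted regions 9 were called lower and the rest were not called, with a median of -0.11. An example not called was chr11:105892493-105893043 near Kcnh6, a voltage-gated subunit, with 4.85 and 3.38 RPM in CuNZ@Gel and 5.83 and 4.58 RPM in Gel, which overlapped. With the same number of top peaks taken from every library, 42612, CuNZ@Gel-restricted regions numbered 14 (5.24%), against 4.27% of all regions. Gel-restricted regions then numbered 15 (5.62%), against 5.54% of all, and their excess over all regions was not seen.

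Genes that act with potassium channels but carry other names were read from a list of 34, of which 32 were tested: 3 were higher and 17 lower, with a median of -0.26, and 9 and 6 with the trend removed. The median level of these genes lies in the highest 3 deciles, where 74.1% of all genes were lower. Without CuNZ@Gel replicate 1 there were 5 higher. Of 7 partner subunits 2 were higher (28.6%) and the other 5 were not called. The median level of the 7 lies in deciles 4 to 5, where 29.2% of all genes were higher. Dpp6, a partner of A-type channels, had 16.5 and 14.9 RPM in CuNZ@Gel, against 10.4 and 10.8 RPM in Gel (0.52 ± 0.15, limma adjusted p = 0.00469). Dpp10, its relative, had 79.5 and 83.4 RPM in CuNZ@Gel, against 73.6 and 70.4 RPM in Gel (0.18 ± 0.07, limma adjusted p = 0.0356), a call lost without CuNZ@Gel replicate 2 (0.14), Gel replicate 1 (0.21) or Gel replicate 2 (0.14). Both were above their Gel values in each library.

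Of the other channels and calcium entry proteins of macrophages 1 of 13 was higher and 10 were lower (76.9%, near the 74.1% of all genes at such levels), and 3 were higher and 4 lower with the trend removed. Panx1, a large-pore channel, was the rise, with 82.0 and 79.2 RPM in CuNZ@Gel, against 63.5 and 63.0 RPM in Gel (0.34 ± 0.07, limma adjusted p = 3.12e-04). P2rx4, an ATP-gated cation channel, had 49.1 and 49.7 RPM in CuNZ@Gel, against 95.1 and 87.2 RPM in Gel (-0.87 ± 0.07, limma adjusted p = 8.52e-09). Orai1, the store-operated calcium channel, had 27.3 and 32.7 RPM in CuNZ@Gel, against 48.9 and 45.8 RPM in Gel (-0.65 ± 0.10, limma adjusted p = 1.93e-05). The fall of P2rx4 was kept with the trend removed (-0.56), and that of Orai1 was not (-0.22, adjusted p = 0.0837).

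Of the sodium-potassium pump and cotransporter genes 5 of 10 were lower (50%) and the other 5 were not called. Their median level lies in deciles 6 to 7, where a near share of all genes, 47.5%, was lower. With the trend removed 2 were higher and 2 lower. Atp1b3, a pump subunit, had 69.4 and 77.5 RPM in CuNZ@Gel, against 122 and 131 RPM in Gel, with no overlap (-0.78 ± 0.07, limma adjusted p = 1.3e-08), and stayed lower with the trend removed (-0.28). Both genes listed for the sensing of potassium efflux were called lower. Their levels lie in the highest 3 deciles, where 74.1% of all genes were lower. Nlrp3, the inflammasome sensor, had 155 and 159 RPM in CuNZ@Gel, against 176 and 176 RPM in Gel (-0.16 ± 0.05, limma adjusted p = 0.00711). Nek7, the kinase that binds Nlrp3, had 136 and 141 RPM in CuNZ@Gel, against 164 and 181 RPM in Gel (-0.32 ± 0.06, limma adjusted p = 6.48e-05). With the trend removed Nlrp3 turned to 0.26 (adjusted p = 1.02e-04) and Nek7 to -0.08 (adjusted p = 0.241).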

How the data were processed

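ATAC-seq was done on 4 libraries of RAW264.7 cells. Build GRCm39, MACS2 2.2.8, Picard 2.27.5, SAMtools 1.17, Bowtie2 2.3.4.3 and fastp 0.23.1 are named in the submitters' processing notes, without their roles. The authors deposited a log2 value per region and library, read here as log2(RPM + 1), since 100% of low values, once the logarithm was reversed, were whole reads to a tolerance of 0.1. For each library a peak list was deposited too, with a fold (a ratio over background), the -log10 of p and q values and a score, used only to describe peaks and to recover the genome background. Merging the lists (bedtools 2.31.1, gap of at most 1 base) gave 80929 regions in the order of the value tables; of 77103 with a gene placed in RefSeq, 77101 lay on its chromosome.

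Because the values are log2, limma 3.58.1 in R 4.3.3 was used (two-sided, with an intensity trend and Benjamini-Hochberg adjustment), on region values and on log2(summed RPM + 1) per gene, a scale that understates changes of low genes. A feature was tested if 2 or more libraries reached 0.710 per 1000000 reads in regions, which is 10 reads at median depth, and all libraries held 15 reads together. Steps were tested on simulated data. Groups came from the sample titles. Intervals are not given for sums; floors cover counting error only. The members, lists and tests were chosen with earlier results of these data known. Genes named are the macrophage channels, up to 3 called rises and falls per class, the 3 with the highest values and the 3 with the most regions, the 3 neuronal genes with the highest values, 2 group-restricted regions per group by peak fold, and 3 called changes per direction in the list without Kcn names. Of the genes named by this rule 1 is not reported here. Kcns2, Kcnc2, Kcnh5, Kcnq1ot1, Nlrp3, Nek7, the not tested Kcnn2 and Kcnq5, Kcnc1 and regions of named genes other than these were chosen after their values were seen. Alternatives covered scaling, filters, pseudocount, voom, the replicate block, single libraries left out, and peak thresholds.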

Additional observations from a re-analysis of the deposited data

How the results depend on the processing

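Counts of channel genes and regions kept within 1.5 times of the reported ones under voom, no filter and a pseudocount of 0.25, and mostly under the other settings. The exceptions were as follows. With cyclic loess lower channel genes were 7, macrophage channels 2 higher and 0 lower, and the list without Kcn names 9 higher and 6 lower. With cyclic loess on the gene sums, added after seeing the data, macrophage channels were 2 higher and 0 lower, neuronal genes 3 lower, and the list without Kcn names 8 higher and 9 lower. With totals of reads in regions, channel genes were 40 higher and 5 lower, channel regions 16 lower, macrophage channels 3 higher, neuronal genes 2 lower, and the list without Kcn names 10 higher and 8 lower. On the background scale channel genes were 5 higher and 48 lower, regions 18 and 121, macrophage channels 4 lower, neuronal genes 4 and 15, and the list without Kcn names 0 higher and 30 lower. The stricter filter left 89 regions, 21 of them higher. The list without Kcn names had 6 higher with median of ratios and 5 with voom. With the same number of top peaks, restricted regions were 14 for CuNZ@Gel and 15 for Gel. The cause of these differences was not tested, except that the stricter filter tests fewer regions.

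With the replicate number as a block, channel genes were 27 higher and 12 lower, regions 68 and 32, macrophage channels 0 and 1, neuronal genes 16 and 5, and the list without Kcn names 5 and 17. The correlation of same-numbered deviations was 0.043. It cannot show whether same-numbered samples shared a culture or a batch, which the labels do not give. With 1 library left out, channel genes were 18 to 27 higher and 8 to 13 lower, regions 47 to 66 and 20 to 30, macrophage channels 0 to 0 and 1 to 1, neuronal genes 12 to 15 and 3 to 5, and the list without Kcn names 2 to 5 and 14 to 17.

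Single genes changed direction as follows. Under cyclic loess Kcnj2 gave 0.15, Kcna3 -0.15, Kcnn4 0.20, Kcnk13 0.20, Kcnab2 0.058 and Kcnip1 0.52. Under cyclic loess on gene sums Kcna3 gave -0.22, Kcnn4 0.40, Kcnk13 0.38 and Kcnip1 0.21. Under totals of reads Kcnn4 gave 0.27, Kcnk13 0.20 and Kcnip1 0.013. Under median of ratios Kcnn4 gave 0.12 and Kcnk13 0.043. With 1 library left out, Kcna3 lay between -0.012 and 0.24 and Kcnn4 between -0.042 and 0.016. On the background scale Kcna3 gave -0.58, Kcnk6 -0.84, Kcnn3 -0.44, Kcnt1 -0.54, Kcnj11 -0.33, Kcnj12 -0.60, Kcnj6 -0.84, Kcnk9 -0.17, Kcnk12 -0.23, Kcnj16 -0.80, Dpp6 -0.46, Panx1 -0.70 and Dpp10 -0.87. Of 513 pairs of gene and setting 433 kept direction and call, 45 lost the call, 30 reversed and 5 gained it. Fewer reads in CuNZ@Gel libraries limit the genes with few reads, Kcna1, Kcns2, Kcnc2 and Kcnmb4os2 among them.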
